A study of Homo sapiens with 4 samples.

Results

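The survival guardians and the pore-forming effectors of the BCL2 family are represented here by 7 genes, chosen by symbol: the guardians BCL2, BCL2L1, MCL1 and BCL2L2 and the effectors BAX, BAK1 and BOK. All 7 were found among the 20515 genes of the count table, and all 7 passed the filter on low counts that left 18369 genes for testing. The libraries hold poly(A) RNA of T47D, a human breast carcinoma cell line of luminal type with estrogen and progesterone receptors. Of 4 libraries, 2 came from cells treated with baicalein, a flavonoid of Scutellaria root, and 2 from cells with no treatment. No other agent or genetic change is named for either group, and the sources used here give no dose, duration or vehicle. The comparison asked how baicalein treatment changed gene expression. Whether replicates were grown as separate cultures is not stated, so p-values cover the spread among these 4 libraries alone, which may be technical.

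Mitochondrial apoptosis is decided at the outer mitochondrial membrane. Once activated, BAX and BAK1 proteins assemble into pores that release cytochrome c, which starts the caspase cascade. Guardian proteins bind the exposed helix of the effectors and of the BH3-only initiators and so hold the pore back, and in breast carcinoma cells MCL1 and the long product of BCL2L1, BCL-XL, are well-known survival factors. BOK resembles BAX and BAK1 in sequence but resides largely on endoplasmic reticulum membranes and is thought to escape the guardians. The guardian and effector proteins share a helical fold with homology regions, among which BH1 has a nearly invariant core.

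The family resemblance that defines the group can be read in the transcripts. The stretches below are GENCODE 29 reference coding sequence around the BH1 core of each gene, shown because this core is what guardians and effectors have in common, and the capitals mark the codons searched for, an AAN codon followed by TGGGGN in reading frame.
MCL1: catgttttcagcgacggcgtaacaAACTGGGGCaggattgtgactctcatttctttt
BCL2L1: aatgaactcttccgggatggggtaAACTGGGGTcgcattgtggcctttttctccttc
BCL2L2: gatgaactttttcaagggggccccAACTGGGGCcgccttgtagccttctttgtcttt
BCL2: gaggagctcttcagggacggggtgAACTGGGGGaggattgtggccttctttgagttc
BAX: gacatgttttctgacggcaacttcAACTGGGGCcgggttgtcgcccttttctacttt
BAK1: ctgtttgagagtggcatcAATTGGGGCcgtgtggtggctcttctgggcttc
BOK: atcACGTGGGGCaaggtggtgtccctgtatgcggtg
The motif occurred a single time in frame in the transcript shown for each of 6 genes. BOK was the exception: its coding sequence held TGGGGN in frame, but with ACG in place of an AAN codon before it, and the capitals mark these bases. On GRCh38 the stretches lie in coding exons, at chr1:150578370-150578426 (minus strand, exon 2 of 3) for MCL1, chr20:31721781-31721837 (minus strand, exon 2 of 3) for BCL2L1, chr14:23308017-23308073 (plus strand, exon 3 of 4) for BCL2L2 and chr18:63318208-63318264 (minus strand, exon 2 of 3) for BCL2. Those of the effectors lie at chr19:48956256-48956312 (plus strand, exon 4 of 6), chr6:33574163-33574213 (minus strand, exon 5 of 6) and chr2:241570127-241570162 (plus strand, exon 4 of 5). Not every annotated product carries the core. It was present in 7 of 9 protein-coding transcripts of BCL2L1 with a start codon, 2 of 3 of MCL1, 3 of 5 of BCL2L2, 6 of 7 of BAX and 2 of 3 of BAK1, and in all 3 of BCL2. BCL2L1 and MCL1 are known for short splice products that promote death, and counts per gene do not separate these from the long guardian forms.

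Total counts were 56732569 and 38597207 in baicalein 1 and 2, and 45341857 and 45618604 in control 1 and 2. Levels are CPM, that is, counts per 1000000 counts of the library after TMM scaling, and per-length levels are CPM divided by the kilobases covered by a gene's exons. The 8 luminal markers together had 6238 and 6333 CPM in baicalein libraries, against 12334 and 13612 CPM in controls. In edgeR's test 7 of the 8 were lower, against 37.6% of all tested genes. Most of that sum was keratin RNA, and single luminal markers differed widely, with log2 fold changes from -3.05 to 0.10. Leukocyte markers summed to 0.366 and 0.510 CPM in baicalein libraries and 0.296 and 0.362 CPM in controls, with CD3E and the 3 endothelial markers not analysed here. Of 5 fibroblast markers 3 were measured, at a sum of 151 and 141 CPM in baicalein libraries and 90.4 and 101 CPM in controls. That sum was almost all COL1A1, while COL1A2 had 1 and 0 counts in baicalein libraries and 5 and 5 in controls. Of 3 basal markers only TP63 was measured, with 16 and 15 counts in baicalein libraries and 218 and 257 in controls, and KRT5 and KRT14 were not analysed here. The part of these shifts in the results below was not tested, and in RNA from whole cultures, fewer cells that express a gene and less RNA per cell cannot be told apart.

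Baicalein-treated cells had more MCL1, BCL2L2 and BAX RNA and less BCL2L1 and BOK RNA, so that in the test as run each role held a gene that rose and a gene that fell. By quasi-likelihood F test in edgeR, adjusted over all tested genes (Benjamini-Hochberg), 3 of the 7 genes were higher and 2 lower at an adjusted p under 0.05, and BCL2 and BAK1 did not pass. Of all tested genes 75.0% were called, 37.4% higher and 37.6% lower, so 5 calls among 7 genes is close to the background. Libraries of the 2 groups did not overlap for 6 of the 7 genes, as for 86.9% of all tested genes. The absolute log2 fold change had a median of 0.57 over all tested genes, and among the 7 genes only BCL2L2 and BAX exceeded it. The median log2 fold change was 0.07 over the 4 guardians, -0.06 over the 3 effectors and 0.0017 over all tested genes. With a trend for GC content and exon length removed from each library, the falls of BCL2L1 and BOK were lost. Then 4 genes were called higher and 1 lower. All 3 effectors had positive values (0.85 for BAX, 0.17 for BAK1 and 0.07 for BOK, which did not pass). The opposed changes among effectors were thus seen only where that correction was not made.

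**Figure D1:**
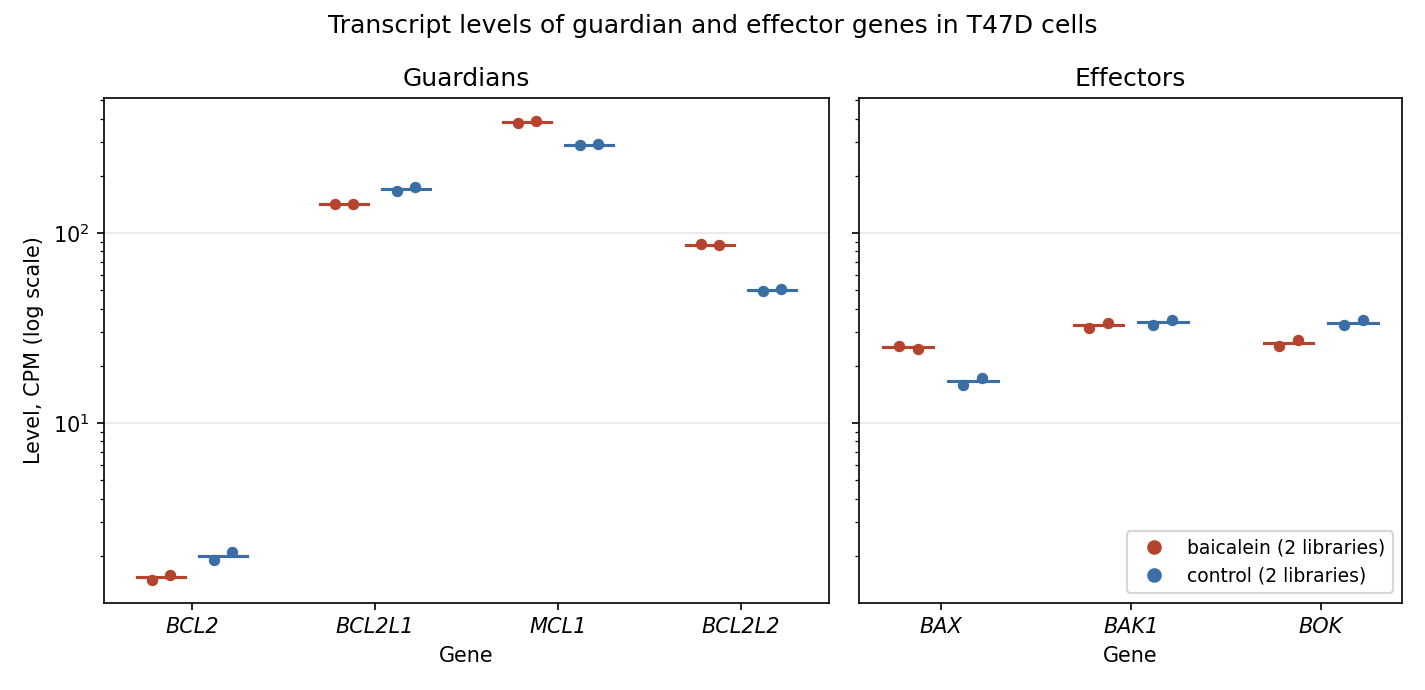
Level of each gene in CPM on a log axis, with a point per library and a line at the mean of the 2 libraries of a group (baicalein in red, control in blue). MCL1, BCL2L2 and BAX lie higher in baicalein libraries, BCL2L1 and BOK lower, and BCL2 is the lowest of the 7 in all 4 libraries.

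MCL1, whose short-lived protein binds BAK1 and several BH3-only proteins, was the most abundant guardian (ENSG00000143384, chromosome 1, positions 150574551 to 150579738, minus strand). It had 380 and 389 CPM in baicalein libraries, against 290 and 294 CPM in controls. Both baicalein libraries lay above both controls. The mean was 385 ± 6.36 CPM with baicalein and 292 ± 2.53 CPM in controls (SD, n = 2 each), a 1.32-fold rise (log2 fold change 0.40, SE 0.04, edgeR adjusted p = 1.33e-08).

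BCL2L2, which codes for BCL-W, a guardian close in sequence to BCL-XL, showed the largest change of the 7 genes (ENSG00000129473, chromosome 14, positions 23298790 to 23311759, plus strand). It had 87.2 and 86.8 CPM in baicalein libraries, against 49.7 and 50.5 CPM in controls. The replicates of each group almost coincided, and the groups stood far apart. The rise was 1.74-fold (log2 fold change 0.80, SE 0.05, edgeR adjusted p = 4.46e-13), and 36.8% of all tested genes changed at least as much. BCL2L2 was also the only one of the 7 whose change exceeded 1.5-fold in edgeR's test against that fold (adjusted p = 6.01e-05). Its exons share 813 bases with the readthrough gene BCL2L2-PABPN1, which had 62 and 9 counts in baicalein libraries and 27 and 17 in controls. Summing these counts with those of BCL2L2 left the log2 fold change at 0.80. A further 206 exonic bases lie opposite PPP1R3E, which had 933 and 697 counts in baicalein libraries and 366 and 397 in controls, and the sources used here do not say whether strand was used in counting.

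BCL2L1, the gene of BCL-XL and of its short, death-promoting splice form, moved the other way (ENSG00000171552, chromosome 20, positions 31664452 to 31723989, minus strand). It had 142 and 143 CPM in baicalein libraries, against 167 and 175 CPM in controls. The groups did not overlap, and the level fell (log2 fold change -0.26, SE 0.04, edgeR adjusted p = 1.21e-05). With GC content and exon length corrected, the log2 fold change was -0.03 (adjusted p = 0.394), whereas with the other library scalings run it lay between -0.37 and -0.26 and passed the test. The antisense gene ABALON overlaps 1424 of its 3314 exonic bases and had 9 and 0 counts in baicalein libraries and 11 and 0 in controls.

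BCL2, the founding guardian and in breast tissue an estrogen-responsive gene, was scarce in every library (ENSG00000171791, chromosome 18, positions 63123346 to 63320128, minus strand). It had 82 and 59 counts in baicalein libraries, or 1.499 and 1.584 CPM, and 90 and 98 counts in controls, or 1.905 and 2.084 CPM. Both baicalein values lay below both control values, but counts this low leave wide error. The log2 fold change was -0.38 (SE 0.18, 95% interval -0.75 to 0.0022) and missed the threshold (edgeR adjusted p = 0.0670, unadjusted p = 0.0512). It passed with upper quartile scaling (adjusted p = 0.0482), with library totals alone (adjusted p = 0.0220) and after the GC and length correction (log2 fold change -0.57, adjusted p = 0.00669).

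BAX, the cytosolic effector that moves to mitochondria when activated and a textbook p53 target, was the effector that rose (ENSG00000087088, chromosome 19, positions 48954815 to 48961798, plus strand). It had 25.4 and 24.6 CPM in baicalein libraries, against 15.9 and 17.3 CPM in controls. Every baicalein value exceeded every control value by more than the replicates differed. The rise was 1.51-fold (log2 fold change 0.59, SE 0.07, edgeR adjusted p = 5.07e-08), close to the middle of the table, since 48.3% of tested genes changed at least as much. Its log2 fold change was 0.85 with GC content and length corrected.

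BAK1, the effector that resides on the outer membrane and is held there by MCL1 and BCL-XL, had 31.6 and 33.7 CPM in baicalein libraries, against 32.9 and 34.8 CPM in controls (ENSG00000030110, chromosome 6, positions 33572547 to 33580293, minus strand). The groups overlapped. The log2 fold change of -0.06 (SE 0.06, edgeR adjusted p = 0.388) had a 95% interval of -0.18 to 0.06, that is, from a 0.886-fold to a 1.05-fold level. The sign was not fixed: it was 0.00079 without baicalein 1 and 0.17 with GC content and length corrected (adjusted p = 0.0017), and library totals alone gave -0.16 (adjusted p = 0.0174).

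BOK, the effector whose protein is kept low by degradation in the proteasome, fell (ENSG00000176720, chromosome 2, positions 241551424 to 241574138, plus strand). It had 25.4 and 27.3 CPM in baicalein libraries, against 32.7 and 34.9 CPM in controls, with no overlap between groups. The fall was 1.29-fold (log2 fold change -0.36, SE 0.06, edgeR adjusted p = 9.60e-06), but with GC content and exon length corrected the value was 0.07 (adjusted p = 0.183). BOK has the highest GC content of the 7 genes, 66.0% in its longest transcript, against 45.1% to 58.9% in the others. The antisense gene BOK-AS1, not analysed here, shares 201 of its 2711 exonic bases.

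**Figure D2:**
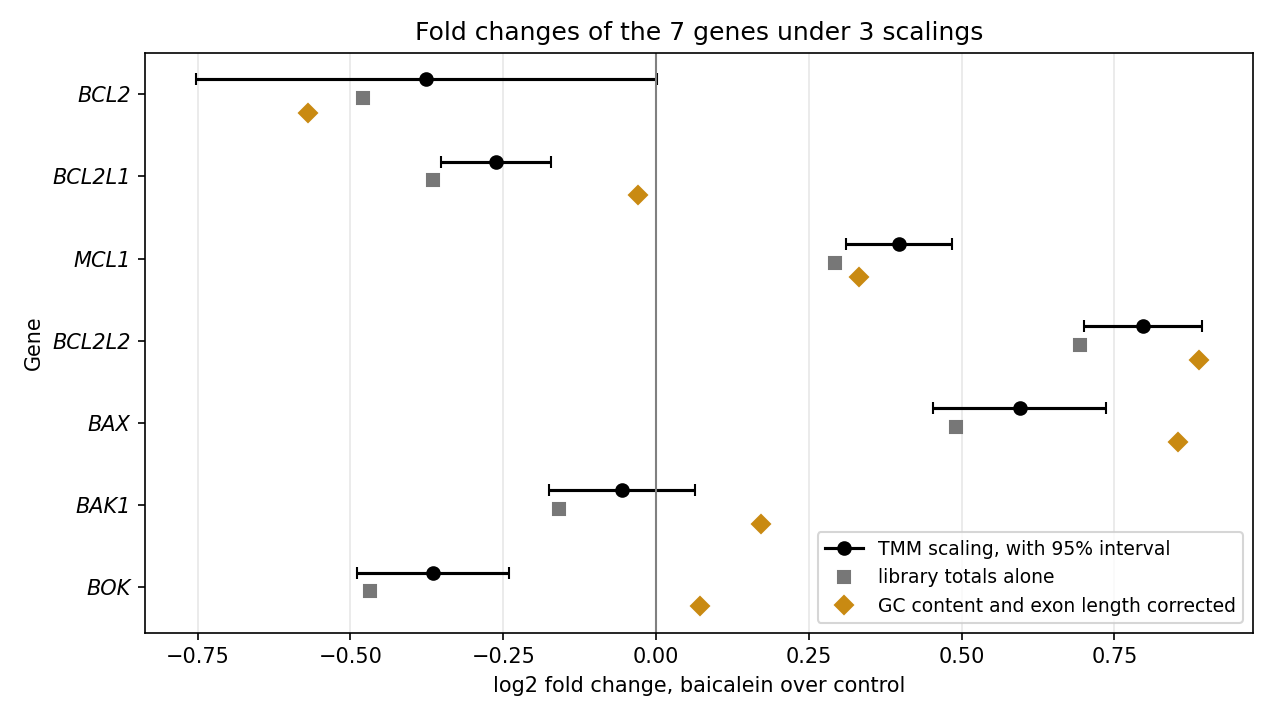
Log2 fold change of each gene, baicalein over control, with TMM scaling and its 95% interval (black), with library totals alone (grey squares) and with a GC content and exon length trend removed (orange diamonds). BCL2L2, BAX and MCL1 stay to the right of 0 under all 3 scalings, whereas BOK and BAK1 cross 0 with the GC and length correction and BCL2L1 comes to -0.03.

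RefSeq promoter windows (GRCh38.p14, 250 bases before to 50 after the start) were on hand for 5 of the 7 genes, MCL1 and BCL2L2 being named only. The windows of BAX, which rose, and BAK1, which was not called, are printed because their proteins share the pore-forming role while the RNAs differed in their change. Capitals mark matches on either strand to the E-box CACGTG, the antioxidant response element TGACNNNGC, the xenobiotic response element core GCGTG, the amino acid response element TGATGNAA and the GC box GGGCGG.
BAX promoter: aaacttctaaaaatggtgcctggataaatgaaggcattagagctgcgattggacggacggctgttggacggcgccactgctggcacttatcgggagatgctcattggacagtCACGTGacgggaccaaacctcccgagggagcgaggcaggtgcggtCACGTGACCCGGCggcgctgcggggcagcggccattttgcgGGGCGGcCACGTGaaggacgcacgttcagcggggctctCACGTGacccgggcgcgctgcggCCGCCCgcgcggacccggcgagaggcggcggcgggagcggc
BAK1 promoter: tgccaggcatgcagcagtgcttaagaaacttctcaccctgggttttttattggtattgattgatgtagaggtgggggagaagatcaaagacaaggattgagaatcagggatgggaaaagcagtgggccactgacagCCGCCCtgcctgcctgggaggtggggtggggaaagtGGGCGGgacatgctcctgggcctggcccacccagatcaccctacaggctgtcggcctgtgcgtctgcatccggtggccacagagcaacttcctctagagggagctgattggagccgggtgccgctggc
The BAX window (chr19:48954625-48954924, plus strand) held 4 E-boxes, bound in other settings by MYC and related factors, of which 1 overlaps the single antioxidant element match, and 2 GC boxes. The BAK1 window (chr6:33580227-33580526, minus strand) held 2 GC boxes and none of the other 4 motifs. Among 35116 promoter windows of the same length, 7.26% held at least 1 E-box, 5 windows held 4 or more, 13.3% held the antioxidant element and 45.0% a GC box. The windows of BCL2, BOK and both starts of BCL2L1 held no E-box. BCL2L1 held 1 antioxidant element match at chr20:31723914-31724213, and 1 xenobiotic core and 1 GC box at chr20:31722819-31723118 (both minus strand). A match describes letters in a window and does not show binding.

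Scaled to exon length, MCL1 led in both groups, with 87.0 and 89.0 CPM per kilobase in baicalein libraries and 66.4 and 67.2 in controls. BCL2L1 held rank 2, at 43.0 and 43.1 CPM per kilobase with baicalein and 50.5 and 52.7 in controls. BCL2L2 held rank 3 in baicalein libraries, at a mean of 20.8 CPM per kilobase, and rank 5 in controls, at 11.95. In baicalein libraries BAK1 (14.8) followed it, then BOK (9.72) and BAX (9.66 CPM per kilobase), whose replicates overlapped. In controls BAK1 (15.3), BOK (12.5), BCL2L2 (11.95) and BAX (6.41 CPM per kilobase) followed BCL2L1 in that order, and BOK and BCL2L2 were separated by less than the spread between the BOK replicates. BCL2 came last by a wide margin, at 0.131 CPM per kilobase with baicalein and 0.170 in controls. Lengths are those of all annotated exons together, and a gene whose cells use shorter transcripts is understated.

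MCL1 and BCL2L2 held larger shares of the guardian pool in both baicalein libraries than in both controls, and BCL2L1 a smaller one. By per-length level, MCL1 made up 57.6% and 58.2% of the 4 guardians in baicalein libraries, against 51.5% and 50.9% in controls. BCL2L2 made up 13.8% and 13.5% with baicalein and 9.20% and 9.12% in controls, while BCL2L1 held 28.5% and 28.2% with baicalein and 39.1% and 39.9% in controls. The summed guardian level was 151 and 153 CPM per kilobase with baicalein and 129 and 132 in controls. Among effectors, BAX made up 29.4% and 27.3% in baicalein libraries and 18.5% and 18.9% in controls, and BOK 28.01% and 28.88% with baicalein and 36.5% and 36.5% in controls. BAK1 held between 42.6% and 44.9% in all 4 libraries. The summed effector level was 34.1 ± 0.931 CPM per kilobase with baicalein and 34.2 ± 1.56 in controls (SD, n = 2 each), a difference far smaller than the spread between replicates. This depends on the length used: divided by the longest transcript of each gene, the effector sums were 42.6 and 43.6 CPM per kilobase with baicalein and 38.9 and 41.6 in controls, which did not overlap. Shares and sums are also given without the GC and length correction. With it, log2 fold changes were 0.85 for BAX, 0.17 for BAK1 and 0.07 for BOK. Those of the guardians were 0.89 for BCL2L2, 0.33 for MCL1, -0.03 for BCL2L1 and -0.57 for BCL2. The smaller shares of BOK and BCL2L1 thus rest on falls that the correction removed.

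**Figure D3:**
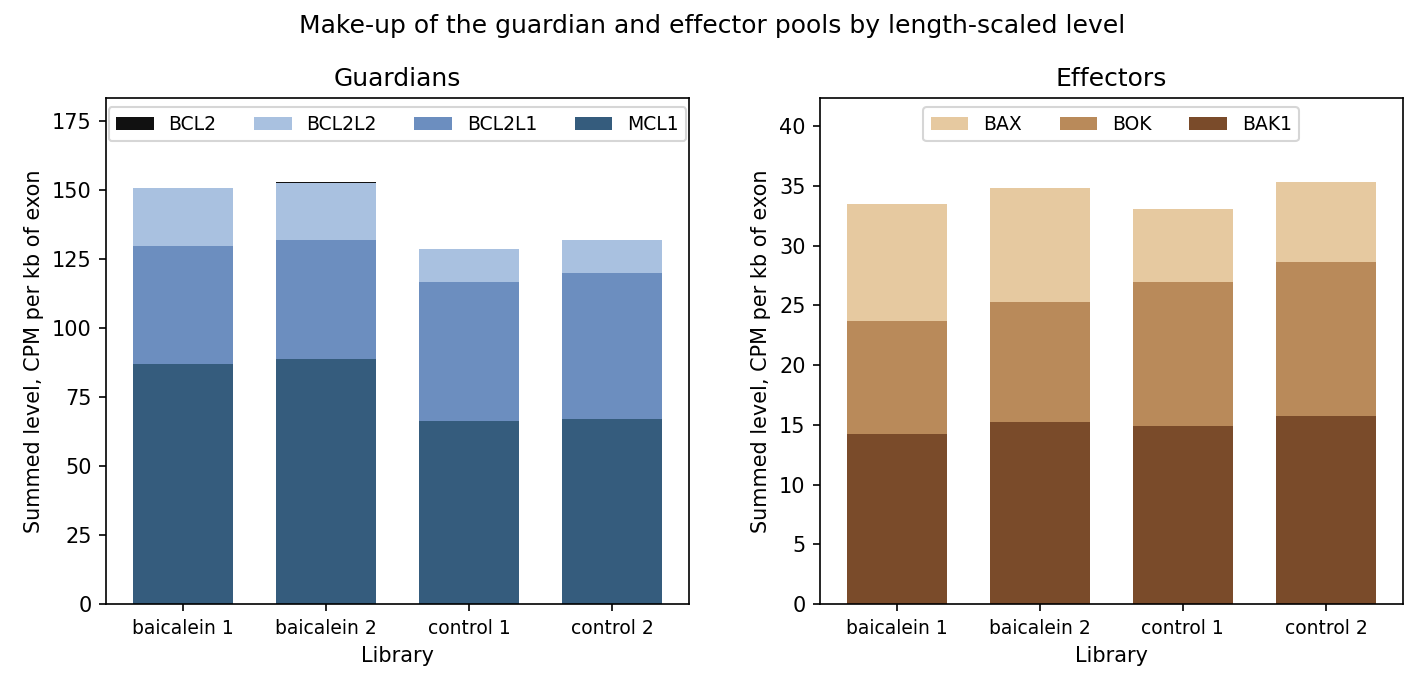
Per-length level, in CPM per kilobase of exon and without the GC and length correction, stacked by gene for guardians (left) and effectors (right) in each library. The guardian stacks reach 151 and 153 in baicalein libraries against 129 and 132 in controls, the effector stacks stay between 33.1 and 35.3, and BCL2, at 0.131 with baicalein and 0.170 in controls, is too thin to see.

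Ratios of an effector to a guardian within a library do not depend on library scaling, and 5 were computed. BAX over BCL2, a ratio often used to describe readiness for apoptosis, was 77.1 and 70.5 by per-length level in baicalein libraries and 37.9 and 37.7 in controls, a 1.95-fold difference. It rests on 59 to 98 BCL2 counts per library. BCL2 made up a mean of 0.0862% of the guardian pool with baicalein and 0.130% in controls. All 5 are ratios of RNA and do not measure protein. BAX over BCL2L1, both well counted, was 0.229 and 0.220 with baicalein and 0.122 and 0.127 in controls, a 1.81-fold difference. BAX over MCL1 was 0.113 and 0.107 with baicalein and 0.0924 and 0.0993 in controls, a 1.15-fold difference. BAK1 over MCL1 went the other way, at 0.164 and 0.171 with baicalein and 0.224 and 0.234 in controls, 1.37-fold lower. All 3 effectors over all 4 guardians came to 0.222 and 0.228 with baicalein and 0.257 and 0.267 in controls, 1.17-fold lower. The groups did not overlap in any of the 5 ratios, and each gave p = 0.333 in a two-sided exact permutation test (also after adjustment over the 5), the smallest p that 2 against 2 libraries allow. The log2 difference of the summed ratio, -0.22, came to -0.0065 with MCL1 left out of the guardians, to -0.10 with the longest transcript as length and to 0.03 with GC content and length corrected. The same correction brought BAK1 over MCL1 to -0.15 in log2, against -0.45 without it, and BAX over MCL1 to 0.52, against 0.20. The difference in each ratio of 2 single genes kept its sign under every alternative run for it. Gene length cancels in such a difference, so the alternatives on length could not have changed it.

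Among 44 tested genes of the surrounding pathway, the one whose centred log2 CPM over the 4 libraries lay nearest was identified by Euclidean distance, and is given here for 6 of the 7 genes. For BCL2L2 it was FBXW7, a ubiquitin ligase subunit with MCL1 among its substrates, at a distance of 0.02 log2 units. For MCL1 it was VDAC2, the outer membrane channel that binds BAK1, at 0.05. For BAX it was TMBIM6, known as BAX inhibitor 1, at 0.12, and for BAK1 it was MTCH2, a mitochondrial outer membrane insertase, at 0.11. BCAP31 was nearest to both BCL2 and BOK, at 0.08 each (BCAP31's own fall, -0.34, came to -0.06 with GC content and length corrected, adjusted p = 0.103). With 2 groups of 2 libraries such nearness reflects mainly a similar size of change.

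Genes upstream and downstream of the 7 were taken from lists by role. All 8 BH3-only initiators, whose proteins neutralise guardians or activate effectors, were called, 5 higher and 3 lower (median log2 fold change 0.88). HRK, which binds BCL-XL, had 22.4 ± 1.52 CPM with baicalein and 0.615 ± 0.092 CPM in controls. PMAIP1, the gene of NOXA, which binds MCL1, averaged 30.5 ± 0.0695 CPM with baicalein and 5.66 ± 1.15 CPM in controls, a 5.39-fold rise. BBC3, the gene of PUMA, rose 5.50-fold, and BID, which activates BAX and BAK1 after cleavage, had 15.2 ± 0.471 CPM with baicalein and 43.9 ± 0.849 CPM in controls (SD, n = 2 each). BIK was the weakest call (log2 fold change -0.51, edgeR adjusted p = 0.0486). Its adjusted p was 0.256 in DESeq2 and 0.0578 in limma-voom. The call was also lost when control 2, baicalein 1 or baicalein 2 was left out. With the replicate block, and with GC content and length corrected, 2 genes of this list were lower.

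Of 6 other genes with BCL2 homology 2 were tested, and BCL2A1, BCL2L10, BCL2L14 and BCL2L15 were not analysed here. BCL2L13, known as a receptor for the removal of mitochondria by autophagy, had 79.5 ± 1.89 CPM with baicalein and 43.1 ± 0.517 CPM in controls, a 1.84-fold rise. BCL2L12 fell 2.51-fold, to 9.25 ± 0.824 CPM with baicalein against 23.4 ± 0.242 CPM in controls. Of 8 membrane partners of the family 4 were higher, 3 lower and 1 not called (median log2 fold change 0.19). After the GC and length correction 4 were higher and 2 lower. The lower call of VDAC1 was slight (log2 fold change -0.10, edgeR adjusted p = 0.0428) and was lost in DESeq2 (adjusted p = 0.0504), with the replicate block (0.0655) and without baicalein 1 (0.284) or baicalein 2 (0.302). GHITM, a protein of the inner mitochondrial membrane, averaged 839 ± 11.2 CPM with baicalein and 341 ± 6.19 CPM in controls. TMBIM6, a protein of the endoplasmic reticulum, averaged 1497 ± 38.4 CPM with baicalein and 998 ± 7.61 CPM in controls, and SLC25A46, an outer membrane protein of mitochondrial dynamics, rose 1.43-fold. VDAC3, an outer membrane channel, fell to 97.9 ± 3.06 CPM with baicalein, against 166 ± 7.62 CPM in controls. VDAC2, the channel that brings BAK1 and BAX to the membrane, averaged 248 ± 0.740 CPM with baicalein and 190.4 ± 4.04 CPM in controls.

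Enzymes that set the stability of the family's proteins were 6 higher, 2 lower and 1 not called of 9 (median log2 fold change 0.57). After the GC and length correction 5 were higher and 3 lower. MARCHF5, a mitochondrial ubiquitin ligase, had 126 ± 2.59 CPM with baicalein and 65.6 ± 1.12 CPM in controls, a 1.92-fold rise. IBTK, a substrate adaptor of a cullin ubiquitin ligase, rose 1.87-fold. Of the deubiquitinases that stabilise MCL1 protein, USP9X had 232 ± 0.557 CPM with baicalein and 156 ± 8.01 CPM in controls (log2 fold change 0.57, and 0.37 with the GC and length correction). USP13, another of them in this list, fell 1.53-fold. RNA counts say nothing of how much protein these enzymes leave.

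Downstream of the pore, 4 of 10 genes of the cytochrome c pathway were higher, 3 lower and 3 not called (median log2 fold change 0.08). CYCS, the gene of cytochrome c, rose 1.43-fold to 311 ± 3.22 CPM with baicalein, against 218 ± 10.3 CPM in controls. APAF1, the scaffold of the apoptosome, had 21.6 ± 0.741 CPM with baicalein and 41.7 ± 2.11 CPM in controls. ENDOG, a mitochondrial nuclease gene, fell 1.44-fold (log2 fold change -0.53), a value of -0.16 with GC content and length corrected (adjusted p = 0.0117), where 6 genes of this list were higher and 3 lower. Of 7 genes of the inhibitor of apoptosis family 3 were higher, 3 lower and 1 not called (median log2 fold change 0.19). The GC and length correction gave 2 higher and 2 lower, and DESeq2 3 higher and 2 lower. XIAP, the direct caspase inhibitor, had 76.5 ± 0.966 CPM with baicalein and 33.6 ± 0.715 CPM in controls, a 2.28-fold rise, and BIRC2 had 108 ± 0.119 CPM with baicalein and 83.7 ± 6.82 CPM in controls. NAIP fell 1.97-fold and BIRC5, which also serves in mitosis, 3.77-fold. Against 75.0% called among all tested genes, the shares called were 70.0% in the cytochrome c list and between 85.7% and 100% in the others, in lists of 2 to 10 tested genes.

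**Figure D4:**
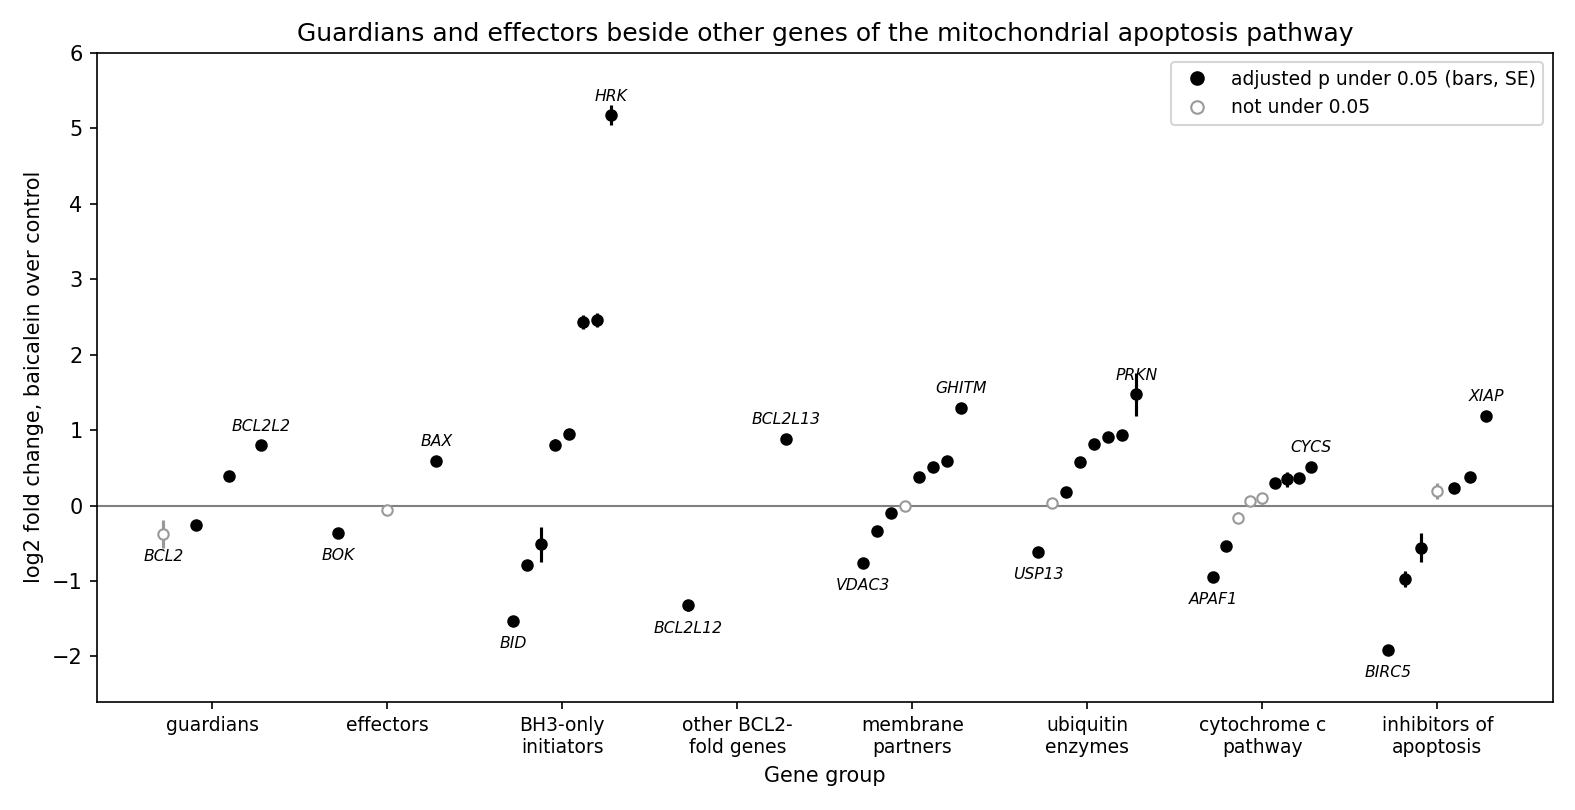
Log2 fold change, baicalein over control, of the tested genes by group, less 1 ubiquitin enzyme and 1 gene of the cytochrome c pathway, with bars of 1 SE and open grey symbols for genes with an adjusted p of 0.05 or more. The guardians and effectors lie between -0.38 and 0.80, while the BH3-only initiators reach from -1.53 for BID to 5.17 for HRK.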

How the data were processed

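The authors deposited 1 table of whole-number counts per gene for 4 libraries, with no scaling to library size. Per the submitters' processing notes, reads were handled with STAR 2.7.8a, RSEM 1.3.3, cutadapt 2.3, DESeq2 1.34 and FastQC 0.11.8 on the build GRCh38. The sources used here give no role for each tool, no annotation release and no use of strand. If the counts are rounded RSEM estimates, genes that share reads carry assignment error. The smallest row total was 10. Columns were matched to samples by description, and groups and replicate numbers came from the titles.

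Symbols came from the reference names table (17419 of 20515 rows had one), and coordinates, exon lengths and overlaps from GENCODE 29 on GRCh38, which held 19849 rows. The test was that of edgeR 4.0.16, run in R 4.3.3 (robust quasi-likelihood fit and F test, TMM factors, no covariates). The filter filterByExpr (minimum count 10, minimum total 15) kept 18369 genes and left out 2146, and p-values were adjusted over these genes (Benjamini-Hochberg, threshold 0.05). Standard errors were computed as the absolute log2 fold change over the root of the F value, and 95% intervals use the test's degrees of freedom. Ratios were tested with exact permutation in scipy 1.17.1. The procedure was tested on simulated counts with known changes in a small part of the genes. In the data 75.0% of tested genes were called, so the simulation does not cover scaling under such broad change. Alternatives were other scalings, filters and thresholds, DESeq2 1.42.0, limma-voom (limma 3.58.1), a replicate block, a test against a 1.5-fold change, the omission of each library and the removal of a trend in GC content and exon length (17867 genes). The sum with the readthrough gene and the corrected ratios were added after seeing the data.

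A count of 3, the floor used for detection, corresponds to 0.0529 to 0.0777 CPM, and all members lay above it. Replicate columns differed by more than sampling noise over genes with at least 20 counts per pair (mean chi-square per gene 2.43 in baicalein and 9.61 in control libraries). Named genes are the 7 members, up to 4 genes per pathway list by the smallest adjusted p, the pathway gene nearest to each member, genes whose exons overlap a member's, and markers. BIK and VDAC1 were named after their values were seen. Values of 2 genes that this rule would name are not reported here, and both are kept in the counts of their lists. The members and lists were chosen with earlier results of these data known.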

Additional observations from a re-analysis of the deposited data

How the results depend on the processing

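Of the 7 genes, BCL2L2 kept its direction and call under all 16 alternatives, and MCL1 and BAX under 14 of 15, the exception being the test against a 1.5-fold change. That test left BCL2L2 as the 1 higher member and 0 lower ones (adjusted p = 1 for MCL1 at 0.40, BCL2L1 at -0.26 and BOK at -0.36, and 0.446 for BAX at 0.59), and 3090 higher and 3581 lower genes over the whole table in place of 6866 and 6902. It also called 0 higher genes of the cytochrome c pathway, 1 higher inhibitor of apoptosis, 1 higher and 1 lower membrane partner and 0 lower ubiquitin enzymes. The correction for GC content and exon length gave BOK 0.072 and BAK1 0.17 (both turned round), BCL2L1 -0.030 (call lost) and BCL2 -0.57 (call gained), with 1 lower member left. The same correction gave log2 differences of 0.031 for effectors over guardians (turned round), -0.15 for BAK1 over MCL1, 1.42 for BAX over BCL2 and 0.52 for BAX over MCL1. The cause was not tested. Library totals alone moved the median of all tested genes by -0.10 and called 4 lower members, with BAK1 at -0.16 and BCL2 at -0.48, and upper quartile scaling called BCL2 at -0.41. The summed effector to guardian ratio, -0.22, was -0.26 without length scaling, -0.10 with the longest transcript, -0.048 without BOK and -0.0065 without MCL1.

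Leaving out each library in turn, with the lone library assumed to vary like the other group, gave 6128 to 6944 higher and 6294 to 6896 lower genes, and 3 higher and 2 lower members each time. BAK1 ranged from -0.10 to 0.00079, its sign turning without baicalein 1, and BCL2 from -0.44 to -0.30. BAX ranged from 0.53 to 0.66, MCL1 from 0.38 to 0.42, BCL2L2 from 0.78 to 0.81, BCL2L1 from -0.30 to -0.22 and BOK from -0.41 to -0.31. The labels do not say whether same-numbered libraries were made together. Deviations of same-numbered libraries from their group means correlated at 0.01 over genes, which cannot settle this with 2 libraries per group. With the replicate block 6894 genes were higher and 6909 lower, and the calls of 3 higher and 2 lower members held, BCL2 at an adjusted p of 0.0744 remaining uncalled. Depth limits BCL2, with 59 to 98 counts per library.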
